A study of Mus musculus with 12 samples.

Results

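The genes described here are 6 sarcomere genes of the mouse: the embryonic and perinatal myosin heavy chains Myh3 and Myh8, the embryonic and atrial essential light chain Myl4, cardiac actin Actc1, cardiac troponin T Tnnt2, and adult skeletal actin Acta1. They were chosen by name, as the isoforms that muscle uses during development together with the adult actin as reference, and make up 6 of the 24421 entries of the deposited count table. All 6 passed the filter on low counts and were among the 13937 genes tested. RNA of the tibialis anterior, a fast muscle of the hindlimb, was sequenced with 1 library per mouse in 6 mice of strain C57Bl/6, the wild type (WT), and in 6 of strain mdx/mTR; all 12 were male and 4 months old. As background, the mdx allele is a loss-of-function mutation of the dystrophin gene Dmd, and mTR stands for the gene of the telomerase RNA, Terc, whose deletion shortens telomeres over generations. The labels give neither the generation of the telomerase-deficient mice nor a control carrying 1 of the alleles alone, so the parts of Dmd and Terc in any difference cannot be told apart. They also do not say how the mice were related, so p-values measure the spread between these samples.

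The sarcomere is built from proteins that each exist as several isoforms encoded by separate genes. A developing fibre makes embryonic and perinatal myosin heavy chains together with a light chain, an actin and a troponin T that the adult heart also uses, and exchanges them for adult fast or slow isoforms as it matures. The same early isoforms return for a time in fibres that regenerate after injury, and dystrophin-deficient muscle goes through repeated cycles of degeneration and regeneration.

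The 6 WT libraries held 36903560 to 40981012 counts and the 6 mdx/mTR libraries 35136327 to 60330410. Levels are counts scaled to a common library size (CPM), with a factor per library found by the TMM method, and 3 counts, below which a level was not read as detected, correspond to 0.0460 to 0.0837 CPM. The label check on Dmd gave 237 ± 6.90 CPM in WT mice against 46.8 ± 7.20 CPM in mdx/mTR mice (SD, n = 6 each), a log2 fold change of -2.34 ± 0.09 (SE; edgeR adjusted p = 8.34e-10). Terc was at or below 0.0555 CPM in every library, too low to check its label. The skeletal fibre markers Ckm, Pygm, Mylpf, Tnnt3, Tnni2, Myh4 and Atp2a1 summed to 147398 to 182734 CPM in WT mice against 115529 to 162319 CPM in mdx/mTR mice, so both groups carried the labelled tissue's defining transcripts. In whole muscle, fewer cells of a type and less RNA per cell cannot be told apart.

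Myh3, Myh8, Myl4 and Tnnt2 were 7.78-fold to 16.7-fold higher in mdx/mTR muscle, and for each of these 4 genes every mdx/mTR mouse lay above every WT mouse. Actc1 was 2.10-fold higher with overlapping groups. Acta1 did not pass the test. In all, 5 of the 5 developmental isoforms rose, where 25.0% of all genes tested were called higher, and 48.3% were called in either direction, at an adjusted p under 0.05 (edgeR's quasi-likelihood test with Benjamini-Hochberg adjustment over all genes tested). At least 4-fold rises were called for 4 of the 5, against 1.61% of all genes tested. The median log2 fold change of the 5 was 2.96, beside 0.01 over all genes tested. WT and mdx/mTR did not overlap, with mdx/mTR higher, for 4 of the 5, against 12.6% of all genes tested.

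**Figure D1:**
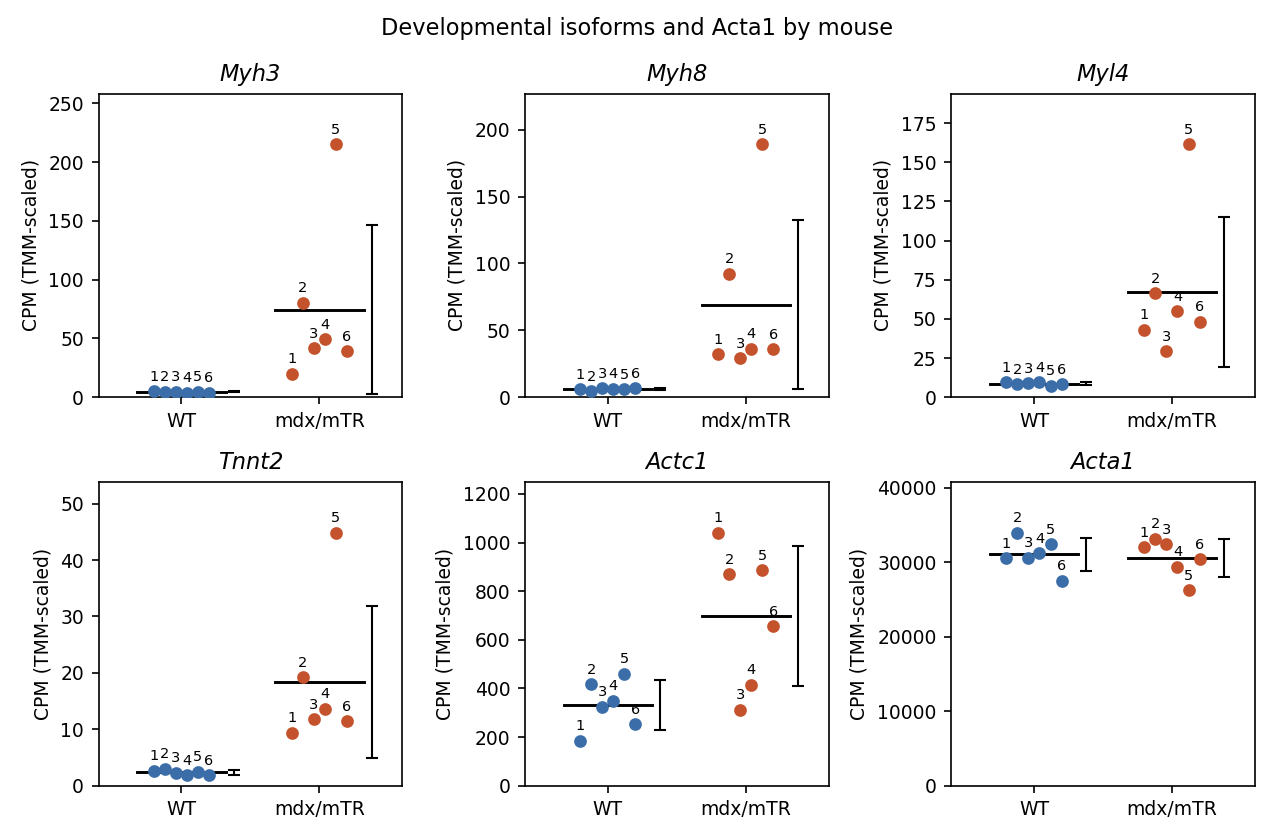
TMM-scaled CPM of each gene (vertical axes, linear, from 0) in 6 WT (blue) and 6 mdx/mTR (orange) mice; each point is 1 mouse with its number, horizontal lines are group means and bars the SD. Myh3, Myh8, Myl4 and Tnnt2 do not overlap between the groups and are highest in mdx/mTR 5, while Actc1 and Acta1 overlap and Actc1 is highest in mdx/mTR 1.

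Myh3 encodes the first myosin heavy chain of the embryonic fibre, and Myh8 the perinatal heavy chain that follows it. Both lie in the cluster of skeletal heavy chain genes on chromosome 11 (RefSeq, GRCm38.p6), Myh3 at chr11:67078273-67102291 and Myh8 at chr11:67277124-67308634, on the plus strand. The adult fast genes Myh2, Myh1 and Myh4 lie between them in that order. Because the pair rose together, their promoter windows are shown, 250 bases before to 50 after the RefSeq start, 5′ to 3′, at chr11:67078050-67078349 and chr11:67276874-67277173. The start used for Myh8 is the first base of its gene, while that for Myh3 lies slightly inside its gene. Motif positions are counted from the start used. Capitals mark matches to short motifs searched on both strands: the E-box CANNTG, the MCAT motif CATTCC, the TATA motif TATAAA, and the CArG and MEF2 motifs, which are named by their usual consensus.
Myh3 promoter: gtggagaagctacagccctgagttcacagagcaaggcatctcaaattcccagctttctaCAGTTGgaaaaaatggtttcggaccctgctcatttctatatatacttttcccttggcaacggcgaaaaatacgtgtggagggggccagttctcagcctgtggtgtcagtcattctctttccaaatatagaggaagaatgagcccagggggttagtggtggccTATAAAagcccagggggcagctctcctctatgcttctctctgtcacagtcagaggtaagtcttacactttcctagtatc
Myh8 promoter: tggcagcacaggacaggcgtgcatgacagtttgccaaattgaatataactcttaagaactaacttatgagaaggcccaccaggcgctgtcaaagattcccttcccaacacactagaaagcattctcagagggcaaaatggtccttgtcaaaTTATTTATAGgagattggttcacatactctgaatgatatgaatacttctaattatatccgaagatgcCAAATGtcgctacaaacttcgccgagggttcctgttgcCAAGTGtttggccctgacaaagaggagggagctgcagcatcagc
The Myh3 window holds 1 E-box, the motif that MyoD and myogenin recognise, at -191 to -186 from the start, and a TATA motif at -29 to -24. The Myh8 window holds E-boxes at -32 to -27 and at 7 to 12, and a MEF2 motif at -99 to -90 that overlaps a TATA motif on the reverse strand at -96 to -91. Of 32851 RefSeq promoter windows of 300 bases, 72.3% hold an E-box, 13.6% the TATA motif and 3.19% the MEF2 motif, so the E-box is common to most windows. A match describes the letters and not a bound site.

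Myh3 in WT ranged from 3.88 to 5.06 CPM with a median of 4.57. In mdx/mTR it was 20.1, 80.5, 41.5, 49.5, 215 and 39.2 CPM in mice 1 to 6. The lowest mdx/mTR mouse was 3.98 times the highest WT mouse, and mdx/mTR 5 stood well above the other mdx/mTR mice. The WT mean was 4.45 ± 0.456 CPM and the mdx/mTR mean 74.4 ± 71.8 CPM (SD, n = 6 each), and the log2 fold change was 4.06 ± 0.51 (SE; edgeR adjusted p = 3.10e-05). Without mdx/mTR 5 the mdx/mTR mean was 46.2 ± 22.0 CPM and the log2 fold change 3.37, and Myh3 was still called.

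Myh8 in WT ranged from 4.52 to 6.76 CPM with a median of 6.14. In mdx/mTR it was 32.3, 92.3, 29.1, 36.3, 189 and 35.9 CPM in mice 1 to 6. Mice 5 and 2 were again the highest, and the other mdx/mTR mice lay close together, all above WT. The means were 5.98 ± 0.800 and 69.2 ± 63.4 CPM, with a log2 fold change of 3.53 ± 0.47 (SE; edgeR adjusted p = 5.11e-05). It was 2.92 without mdx/mTR 5, where the mdx/mTR mean was 45.2 ± 26.5 CPM. Myh8 shares sequence with its adult neighbours: 21.4% of the 50-base stretches of its longest coding transcript, and 6.61% of those of 100 bases, also occur in other genes, mainly Myh2, Myh1 and Myh4, against 4.81% and 1.15% for Myh3. How reads that fit several genes were counted is not given in the sources used here, so the level of Myh8 is the less certain of the pair. Its largest sharing partners moved the other way or did not pass the test, as given with the adult isoforms.

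Myl4 encodes the essential light chain that binds the neck of the myosin head in embryonic skeletal muscle and in the atrium; it lies at chr11:104546017-104587215, away from the heavy chain cluster. The promoter window of Myl4, at chr11:104550413-104550712, lies inside that span, and the first base of the span is outside the window. It holds none of the 5 motifs searched, which says only that these letters are not in that window. Myl4 in WT ranged from 7.34 to 9.72 CPM with a median of 8.54. In mdx/mTR it was 43.0, 66.4, 29.4, 55.0, 162 and 48.1 CPM in mice 1 to 6. The groups were separate, mdx/mTR 5 was the highest and mdx/mTR 3 the lowest mdx/mTR mouse. The means were 8.65 ± 0.864 and 67.2 ± 47.8 CPM, with a log2 fold change of 2.96 ± 0.35 (SE; edgeR adjusted p = 1.86e-05), which was 2.48 without mdx/mTR 5. No 50-base stretch of Myl4 occurs in another gene, and the same held for Tnnt2 and Actc1.

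Tnnt2 encodes the troponin T of embryonic skeletal muscle and of heart, the subunit that ties the troponin complex to tropomyosin. It lies at chr1:135836315-135852268 on the plus strand. The window at the first of its 2 RefSeq starts, chr1:135836084-135836383, is shown because it holds the most motif matches of the 7 windows of these genes. That start lies slightly inside the gene and not at its first base.
Tnnt2 promoter: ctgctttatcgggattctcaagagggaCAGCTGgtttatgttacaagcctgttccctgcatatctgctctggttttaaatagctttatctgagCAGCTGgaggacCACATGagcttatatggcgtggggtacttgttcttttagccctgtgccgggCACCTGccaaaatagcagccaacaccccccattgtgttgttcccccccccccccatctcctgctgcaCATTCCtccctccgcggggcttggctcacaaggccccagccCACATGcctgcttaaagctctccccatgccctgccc
In capitals are 5 E-boxes, at -223 to -218, -157 to -152, -145 to -140, -94 to -89 and 15 to 20, and 1 MCAT motif, the element that TEAD factors recognise, at -27 to -22. The MCAT motif occurs in 14.7% of all 32851 windows. Tnnt2 in WT ranged from 1.83 to 2.99 CPM with a median of 2.41. In mdx/mTR it was 9.36, 19.2, 11.8, 13.7, 44.9 and 11.4 CPM in mice 1 to 6. The lowest mdx/mTR mouse was 3.13 times the highest WT mouse. The means were 2.36 ± 0.457 and 18.4 ± 13.4 CPM, with a log2 fold change of 2.96 ± 0.37 (SE; edgeR adjusted p = 3.09e-05), which was 2.47 without mdx/mTR 5.

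Actc1, at chr2:114047282-114052875, encodes the actin of the adult heart, which is also the main striated actin of the embryonic skeletal fibre. Acta1, at chr8:123891758-123894775, encodes the actin that fills the thin filaments of adult skeletal muscle. The promoter windows of both are shown, at chr2:114052826-114053125 and chr8:123894726-123895025, both on the minus strand, because both hold a CArG motif, the element that serum response factor recognises.
Actc1 promoter: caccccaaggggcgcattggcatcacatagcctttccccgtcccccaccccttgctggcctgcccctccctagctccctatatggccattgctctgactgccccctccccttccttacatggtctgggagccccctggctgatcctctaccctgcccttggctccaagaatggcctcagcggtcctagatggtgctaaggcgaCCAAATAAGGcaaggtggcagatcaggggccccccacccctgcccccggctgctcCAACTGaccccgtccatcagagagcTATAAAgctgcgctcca
Acta1 promoter: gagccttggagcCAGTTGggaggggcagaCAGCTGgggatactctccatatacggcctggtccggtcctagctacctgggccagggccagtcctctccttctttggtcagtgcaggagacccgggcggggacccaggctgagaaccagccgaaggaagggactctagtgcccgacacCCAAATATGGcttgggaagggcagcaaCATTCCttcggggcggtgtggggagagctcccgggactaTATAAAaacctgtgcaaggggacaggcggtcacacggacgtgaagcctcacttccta
The CArG motif lies at -47 to -38 in Actc1 and at -73 to -64 in Acta1, and 1.63% of all 32851 windows hold one. Actc1 also holds 1 E-box at 9 to 14 and a TATA motif at 34 to 39. Acta1 holds E-boxes at -238 to -233 and -221 to -216, an MCAT motif at -46 to -41 and a TATA motif at -7 to -2. The start used for each actin gene is the first base of its RefSeq gene, and the TATA motif of Actc1 lies after it. Positions hold for these starts alone, and whether transcription begins there was not tested. The 2 actin genes, whose windows hold this motif in common, gave different results in the comparison.

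Actc1 was 184, 417, 325, 349, 460 and 253 CPM in WT mice 1 to 6. In mdx/mTR it was 1041, 869, 312, 416, 887 and 655 CPM. Of the 6 mdx/mTR mice, 4 lay above the highest WT mouse, while mice 3 and 4 lay inside the WT range. The means were 331 ± 102 and 697 ± 287 CPM, and the log2 fold change was 1.07 ± 0.28 (SE; edgeR adjusted p = 0.00686). Leaving out each mouse in turn gave 0.92 to 1.22, and Actc1 was called each time. Its spread was already wide in WT, where the highest mouse was 2.50 times the lowest, against 1.30 times for Myh3.

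Acta1 in WT ranged from 27509 to 33958 CPM with a median of 30916, and in mdx/mTR from 26244 to 33123 CPM with a median of 31208. The ranges overlap almost completely, and only mdx/mTR 5 lay below the lowest WT mouse. The means were 31030 ± 2158 and 30593 ± 2537 CPM, with a log2 fold change of -0.02 ± 0.09 (SE; edgeR adjusted p = 0.870). Its direction depends on the scaling, being 0.02 when libraries were scaled by the upper quartile and 0.13 when scaled by their totals, and it was not called in either case. Against Acta1, the difference in the log2 ratio of counts to Acta1, which needs no library scaling, was 3.66 for Myh3, 3.17 for Myh8, 2.76 for Myl4 and 2.77 for Tnnt2. Groups did not overlap for these 4 ratios, and the exact permutation p was 0.00216 for each (two-sided, 5 ratios tested, no adjustment), the smallest that 6 against 6 allows. The ratio of Actc1 to Acta1 was higher by 1.03 with overlapping groups (exact permutation p = 0.0216).

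The spread among mdx/mTR mice differed from gene to gene. The highest mdx/mTR mouse was 10.7 times the lowest for Myh3, 6.50 times for Myh8, 5.49 times for Myl4, 4.79 times for Tnnt2, 3.33 times for Actc1 and 1.26 times for Acta1. In WT the same ratio was 1.30, 1.49, 1.32, 1.63, 2.50 and 1.23. Much of the spread came from mdx/mTR 5: without it the mdx/mTR ratio was 4.00 for Myh3, 3.17 for Myh8, 2.26 for Myl4 and 2.05 for Tnnt2, while that of Actc1, whose extremes are mice 1 and 3, stayed at 3.33. Without mouse 5, Actc1 therefore varied more among mdx/mTR mice than Myh8, Myl4 and Tnnt2 by this ratio, and it was also the member with the widest WT range.

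The order of the mice was shared by pairs of genes. Myh3 and Tnnt2 ranked the 6 mdx/mTR mice identically, from mouse 5 through 2, 4, 3 and 6 to mouse 1 (Spearman's rho = 1; Pearson's r of log2(CPM + 0.5) = 0.979; exact permutation p = 0.00278 for each, adjusted over 15 pairs 0.0208). Leaving out the 2 mice farthest from the median of Myh3, 1 and 5, r was 0.999. Myh8 and Myl4 also ranked them identically, from mouse 5 through 2, 4, 6 and 1 to mouse 3 (rho = 1; r = 0.937; exact permutation p = 0.00278 for each, adjusted 0.0208), and r was 0.964 without mice 2 and 5. Those were the pairs that passed after adjustment over the 15 pairs of members. Between Myh3 and Myh8 r was 0.925 (exact permutation p = 0.0250, adjusted 0.0833; rho = 0.829, exact permutation p = 0.0583, adjusted 0.146), and 0.953 without mice 1 and 5. For Myh8 and Tnnt2 r was 0.962 (exact permutation p = 0.0250, adjusted 0.0833; rho = 0.829, p = 0.0583, adjusted 0.146) but 0.368 without mice 2 and 5, so that relation rests on those mice.

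Actc1 ranked the mice in another order. It ran from mouse 1 through 5, 2, 6 and 4 to mouse 3, so the mouse highest in Actc1 was the lowest in Myh3 and Tnnt2. Between Actc1 and Myh3 r was 0.166 (exact permutation p = 0.786, adjusted 0.842; rho = -0.0286, p = 1, adjusted 1), and 0.636 without mice 1 and 5. With Tnnt2 it was 0.307 (exact permutation p = 0.611, adjusted 0.705; rho = -0.0286), and 0.0699 without mice 3 and 4. It was higher with Myh8, at 0.517 (exact permutation p = 0.317, adjusted 0.399; rho = 0.371), and with Myl4, at 0.535 (exact permutation p = 0.247, adjusted 0.371; rho = 0.371), and 0.272 without mice 2 and 5 and -0.210 without mice 3 and 5. None of these 4 pairs passed. Over 6 mice these values leave a wide range of possible relations. As a description chosen after the values were seen, the mean log2 ratio of each other isoform to Actc1 was higher in mdx/mTR by 2.62 for Myh3, 2.14 for Myh8, 1.72 for Myl4 and 1.73 for Tnnt2, with overlapping groups. An exact permutation test was also run on these 4 ratios. Since they were picked after the fact, its p-values are not read here.

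**Figure D2:**
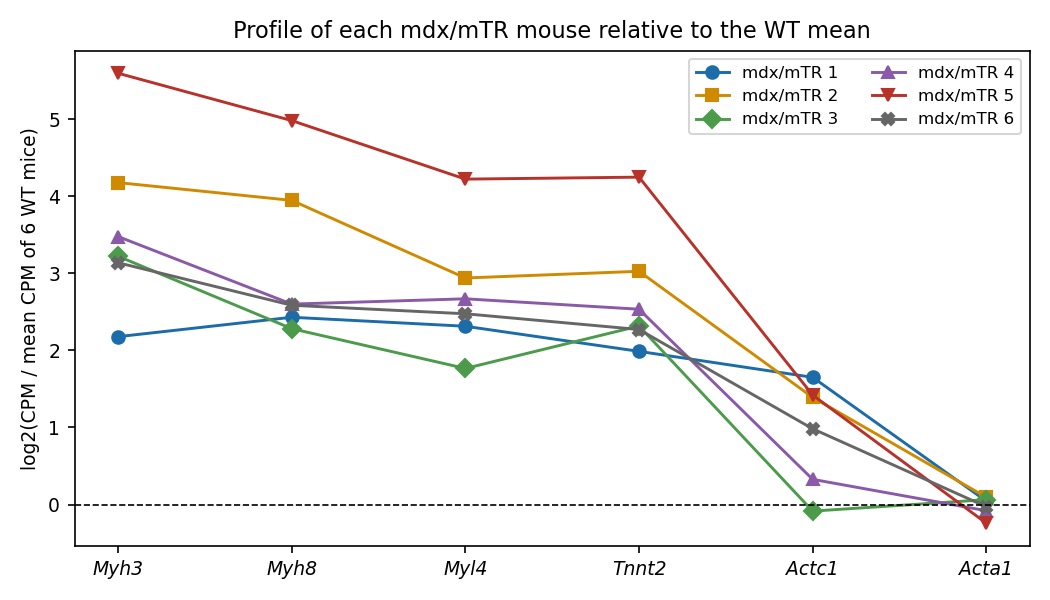
Each line is 1 mdx/mTR mouse; the vertical axis is log2 of its CPM over the mean CPM of the 6 WT mice, and the dashed line at 0 is the WT mean. Mouse 5 is highest for Myh3, Myh8, Myl4 and Tnnt2, the lines cross at Actc1, where mouse 1 is highest, and all lie close to 0 at Acta1.

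Cells other than mature fibres also differed between the groups. The 6 macrophage markers Adgre1, Cd68, Lyz2, Csf1r, Cd163 and Mrc1 summed to 79.2 to 136 CPM in WT mice against 223 to 566 CPM in mdx/mTR mice. Of the 6, 5 were called higher, against 25.0% of all genes tested. The 5 fibroblast markers Pdgfra, Dcn, Lum, Col1a1 and Col3a1 summed to 841 to 1559 CPM and 2160 to 4359 CPM, with all 5 called higher, against the same 25.0%. Both sums were highest in mdx/mTR 5, the mouse with the highest Myh3, Myh8, Myl4 and Tnnt2 and with the largest TMM factor (1.16). Their part in the rise of the developmental isoforms was not tested. Actc1, Tnnt2 and Myl4 are also heart genes, and of the defining heart markers Nppa was at most 0.262 CPM and Myl7 at most 0.0273 CPM in any library. All of the 7 heart markers but Myh6 were below 0.5 CPM in every library and too low to test. The means of Nppa, Tnni3 and Ryr2 were higher in mdx/mTR. Values are given for WT and then for mdx/mTR. Nppa was 0.0913 ± 0.0298 and 0.186 ± 0.0398 CPM without overlap, Tnni3 0.169 ± 0.0562 and 0.277 ± 0.0976, and Ryr2 0.185 ± 0.0790 and 0.249 ± 0.0830. Mybpc3 was 0.00465 ± 0.0114 and 0.0810 ± 0.0920, and Nppb 0.00931 ± 0.0228 and 0.0236 ± 0.0150. Myl7, at 0.00435 ± 0.0107 and 0.00456 ± 0.0112, was nearly the same in both groups. Nppb and Myl7 stayed below 3 counts in every library, as did Mybpc3 in WT, and so were not read as detected there. The part of the heart markers in the rise of the isoforms was not tested. The sum of the 7 cardiomyocyte markers, which is mostly Myh6 and falls through it alone, was 4.79 to 6.31 CPM in WT mice against 2.15 to 3.64 CPM in mdx/mTR mice.

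Levels of different genes are compared per kilobase of the longest coding transcript. In WT the mean level per kilobase was 21460 for Acta1, 225 for Actc1, 9.17 for Myl4, 1.97 for Tnnt2, 0.973 for Myh8 and 0.737 for Myh3 (CPM per kb). The neighbours Myh8 and Myh3 overlapped in this order, with Myh8 above Myh3 in 5 of 6 mice, and the other steps between these genes did not overlap. In mdx/mTR the means were 21157 for Acta1, 473 for Actc1, 71.3 for Myl4, 15.3 for Tnnt2, 12.3 for Myh3 and 11.3 for Myh8 CPM per kb. There the ranges of Tnnt2, Myh3 and Myh8 overlapped, as did those of Myl4 and Tnnt2, with Myh3 above Myh8 in 4 of 6 mice, so no order among the heavy chains holds beyond the spread. Actc1 was the most abundant developmental isoform in both groups, and the means of Myh3 and Myh8 were the lowest of the 6 genes in both.

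Shares within each family set these levels beside those of the adult isoforms. A share is the percentage of the family's length-scaled counts, taken over Myh1, Myh2, Myh3, Myh4, Myh7 and Myh8 for the heavy chains, Myl1, Myl3 and Myl4 for the light chains, Tnnt1, Tnnt2 and Tnnt3 for troponin T, and Acta1 and Actc1 for actin. Myh3 made up 0.00578% ± 0.000608 of heavy chain counts in WT and 0.151% ± 0.162 in mdx/mTR, and Myh8 0.00761% ± 0.000921 and 0.137% ± 0.141 (SD, n = 6 each). Even in mdx/mTR 5 the shares were 0.469% and 0.405%, so adult chains supplied nearly all heavy chain counts in every mouse. Myl4 rose from 0.183% ± 0.0247 of light chain counts to 1.46% ± 1.22, with 3.90% in mdx/mTR 5. Tnnt2 rose from 0.0112% ± 0.00248 to 0.110% ± 0.0957 of troponin T counts. These 4 shares did not overlap between groups (exact permutation p = 0.00216 each, two-sided, 5 shares tested, no adjustment). Actc1 rose from 1.03% ± 0.269 to 2.20% ± 0.919 of actin counts, with overlap (exact permutation p = 0.0195). Without mdx/mTR 5 the difference in share was 0.0818 in place of 0.145 percentage points for Myh3, 0.0762 in place of 0.130 for Myh8, 0.790 in place of 1.28 for Myl4 and 0.0612 in place of 0.0988 for Tnnt2.

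**Figure D3:**
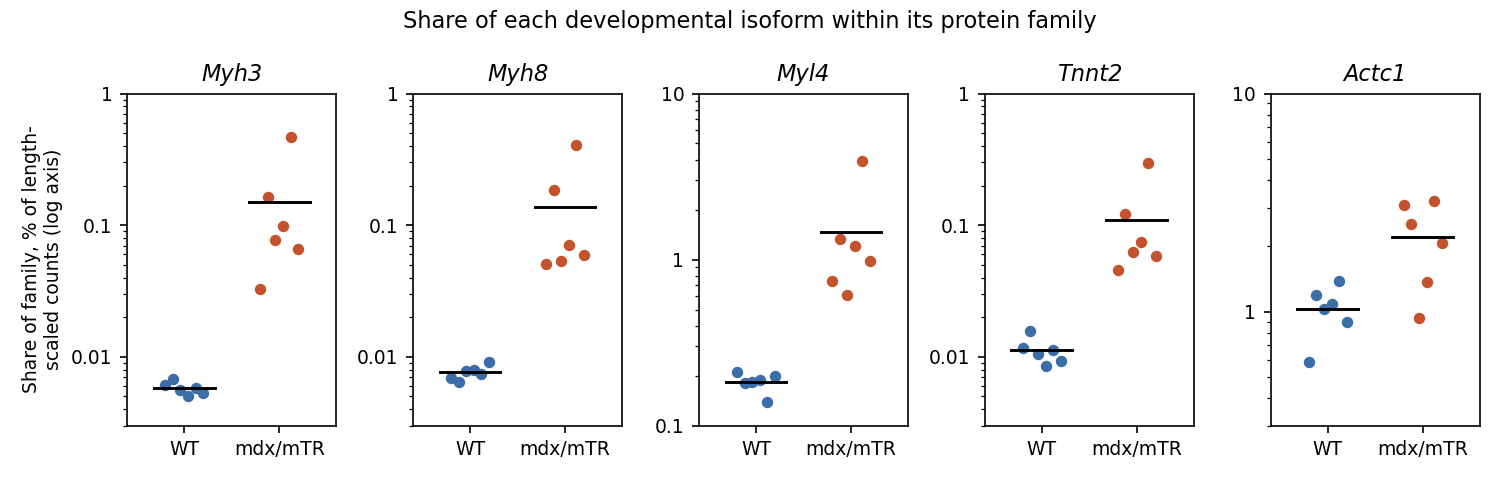
Share of each developmental isoform in its protein family, in percent of length-scaled counts (log axes), in 6 WT (blue) and 6 mdx/mTR (orange) mice, with lines at group means. The shares of Myh3, Myh8, Myl4 and Tnnt2 are separate between groups, that of Actc1 overlaps, and the highest share of any developmental isoform is 3.90%, for Myl4 in mdx/mTR 5.

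The adult counterparts moved in both directions. Of 9 adult counterparts tested, 2 rose (22.2%, against 25.0% of all genes tested), 3 fell (against 23.4%) and 4 did not pass the test, with a median log2 fold change of -0.03. These counts lie near the shares over all genes, so they say nothing particular about the list. Within the chromosome 11 cluster, where Myh3 and Myh8 rose on either side of the adult genes, Myh2, the heavy chain of oxidative fast fibres, fell from 1058 ± 569 to 407 ± 112 CPM (log2 fold change -1.38 ± 0.29, edgeR adjusted p = 0.00164). Myh4, the heavy chain of the fastest fibres and the most abundant in this muscle, fell from 66076 ± 8521 to 43138 ± 7862 CPM (-0.62 ± 0.14, edgeR adjusted p = 0.00267). Myh1, between them, was 9874 ± 3621 and 9701 ± 2505 CPM (edgeR adjusted p = 0.932). Myh13, the heavy chain of extraocular muscle and the gene beyond Myh8 in the cluster, fell from 8.61 ± 1.14 to 3.40 ± 0.679 CPM (-1.34 ± 0.13, edgeR adjusted p = 5.61e-06). Between 18.9% and 32.1% of the 50-base stretches of Myh2, Myh1 and Myh4 also occur in another gene, and the split of counts among them is uncertain. Some stretches of Myh3, Myh8 and the far more abundant Myh4 also occur in Myh13, so the low level of Myh13 and its fall are uncertain too.

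The slow and cardiac relatives of these genes also moved in both directions. Myh7, the slow heavy chain that the heart also uses, rose from 3.54 ± 0.616 to 14.2 ± 11.5 CPM (2.02 ± 0.50, edgeR adjusted p = 0.00445), with overlapping groups and its highest levels in mice 1 and 2. It was not called by limma-voom (1.65, limma-voom adjusted p = 0.0642). Myl3, the slow and ventricular essential light chain of Myl4's family, fell from 80.1 ± 39.0 to 22.2 ± 4.41 CPM (-1.85 ± 0.25, edgeR adjusted p = 5.60e-05). Tnnt1, the slow troponin T, rose from 4.44 ± 0.563 to 13.4 ± 8.17 CPM (1.59 ± 0.29, edgeR adjusted p = 6.50e-04), and the fast Tnnt3 was 19062 ± 1252 and 16181 ± 1933 CPM (-0.24, edgeR adjusted p = 0.0562). Tnnt3 was called lower under 5 of 20 alternatives, among them DESeq2 (-0.25, adjusted p = 0.0116) and limma-voom (-0.24, adjusted p = 0.0306), and adjusted p ranged from 0.0116 to 0.230 over the 20. Myl1, the fast essential light chain, was 5347 ± 451 and 5486 ± 663 CPM (edgeR adjusted p = 0.757). Of the 8 other myosin heavy chain genes listed, 7 were tested. Of these 7, 5 fell, against 23.4% of all genes tested that were called lower, while Myh9 and Myh10 did not pass. Those that fell include the cardiac Myh6 (5.19 ± 0.557 to 1.95 ± 0.634 CPM) and Myh7b (4.93 ± 0.756 to 2.40 ± 0.675 CPM). Counts of Myh6 and Myh7 may be mixed, since 28.2% of the 50-base stretches of Myh7 occur elsewhere, mostly in Myh6.

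**Figure D4:**
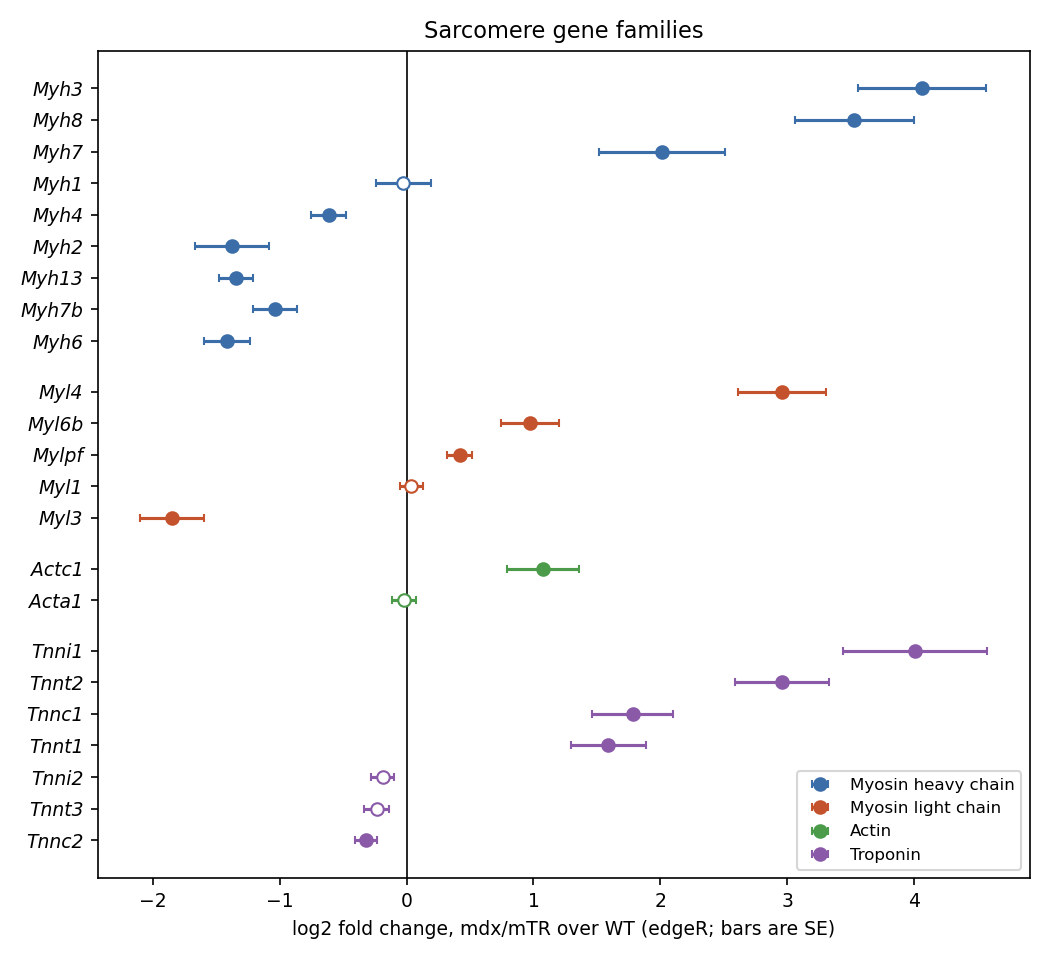
Sarcomere genes by edgeR log2 fold change (horizontal axis, mdx/mTR over WT; bars are SE), coloured by family. Filled circles passed an adjusted p under 0.05 and open circles did not; Myh3, Tnni1, Myh8, Myl4 and Tnnt2 lie farthest to the right, while Myl3, Myh6, Myh2 and Myh13 lie to the left of 0.

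Partners of the developmental isoforms in the thin and thick filaments were read from lists of fast and of slow or cardiac genes. Of the 14 slow or cardiac partners, 11 were tested, 4 rose and 2 fell, counts that lie near the 25.0% higher and 23.4% lower over all genes tested. Tnni1, the slow troponin I that the embryonic fibre also makes, rose from 2.10 ± 0.532 to 33.9 ± 37.9 CPM (4.01 ± 0.57, edgeR adjusted p = 8.14e-05). It reached 110 CPM in mdx/mTR 5, and the log2 fold change was 3.15 without that mouse. Tnnc1, the slow and cardiac troponin C that binds calcium, rose by 1.78 on the log2 scale, the light chain Myl6b by 0.97 and the myosin-binding protein Mybph by 1.46. Myl7, Tnni3 and Mybpc3, which are cardiac, were too low to test. Of the 6 fast-fibre partners, Mylpf, the fast regulatory light chain, rose (0.42, edgeR adjusted p = 0.00322), and Tnnc2 (-0.32, edgeR adjusted p = 0.00611) and Mybpc2 (-0.31, edgeR adjusted p = 0.0178) fell.

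Genes that mark newly formed fibres were listed as a further readout beside the isoforms. Of 11 listed symbols, 9 were in the table. Of these 9, 8 rose, against 25.0% of all genes tested that were called higher. Cdh15, the M-cadherin of satellite cells and young fibres, fell by 0.37 on the log2 scale (edgeR adjusted p = 0.0119). Myog, the differentiation factor myogenin, rose from 2.87 ± 0.561 to 15.8 ± 7.28 CPM, and Myod1, which acts before it, from 19.5 ± 4.66 to 37.1 ± 5.57 CPM. Chrng, the fetal subunit of the acetylcholine receptor, was 0.0673 ± 0.0451 CPM in WT mice against 3.97 ± 2.40 CPM in mdx/mTR mice. Among WT mice, only WT 5, with 6 counts, reached the 3 counts read as detected. Tmem8c, the older symbol of the fusion protein myomaker, was at most 0.167 CPM in WT and 4.72 to 25.0 CPM in mdx/mTR. Of 4 satellite cell markers, 2 (Myf5 and Chodl) were called higher, against the same 25.0%. Pax7, the factor that defines these cells, was 3.03 ± 0.321 and 3.32 ± 0.664 CPM (edgeR adjusted p = 0.436). Myog, Chrng and Tmem8c were highest in mdx/mTR 5, as were Myh3 and Tnnt2.

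By the measure used, the pattern of Myh3 over the 12 mice was most like that of Tubb6, a beta-tubulin. Likeness was Pearson's r of log2(CPM + 0.5) centred on each group mean over the 12 mice, ranked over 9503 genes with a mean of at least 5 CPM and given as a description. It was 0.972 for Tubb6, 0.954 for the kinase gene Mapk7, 0.953 for the ferlin Myof, 0.951 for Tmem8c and 0.943 for the membrane protein gene Pmepa1. Among the members it was 0.962 for Tnnt2, 0.894 for Myh8, 0.855 for Myl4, 0.124 for Actc1 and -0.484 for Acta1. These values rest mostly on the mdx/mTR mice, which spread far more than WT: for Tubb6 r was 0.993 within mdx/mTR but -0.928 within WT, and for Myh8 0.925 and -0.513. For Tnnt2 r was 0.979 within mdx/mTR and 0.890 within WT, so its likeness to Myh3 was also seen within WT. Tubb6 rose (log2 fold change 1.35, edgeR adjusted p = 6.34e-05), as did Myof (0.96) and Mapk7 (0.49), whereas Pmepa1 did not pass (0.25, edgeR adjusted p = 0.145). For Actc1, a ranking added after its values were seen put Adamts20, a secreted metalloprotease gene, first at 0.897.

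The authors' deposited table of the same comparison gives the same directions with smaller sizes for the isoforms that rose. Its log2 fold change is 2.78 for Myh3, 2.49 for Myh8, 2.38 for Myl4, 2.33 for Tnnt2, 0.91 for Actc1 and -0.03 for Acta1, per the authors' deposited table. DESeq2 run on the same counts gave 4.05 for Myh3, 3.51 for Myh8, 2.94 for Myl4, 2.95 for Tnnt2 and 1.06 for Actc1, close to the edgeR values. What makes the authors' deposited table differ in size was not tested.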

How the data were processed

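Each of 12 libraries is 1 mouse, grouped by the strain label. The authors deposited whole-number counts per gene symbol, and a table of their own comparison whose log2 fold change, signal, score and p-values carry column names of DESeq2, per the file headers. STAR, FastQC and DESeq2 with build mm10 are named in the submitters' processing notes; the counter, annotation and strand handling are not given in the sources used here. All 12 per-sample columns matched a sample (0 did not).

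The deposited counts entered edgeR 4.0.16 (R 4.3.3) unchanged: filterByExpr (13937 genes, 99.97% of counts), TMM scaling, a quasi-likelihood test with group as the only term, Benjamini-Hochberg adjustment over all genes tested and a threshold of 0.05. The fit was tested on simulated data. DESeq2 1.42.0 and limma 3.58.1 served as alternatives, with other filters and scalings, a replicate block and each mouse left out. Shares and ratios (pseudocount 0.5) were compared with scipy 1.17.1 by exact permutation tests, two-sided. Lengths and shared stretches come from GENCODE M21 transcripts, and positions and promoters from RefSeq GRCm38.p6, which gave 7 promoter windows for the 6 genes. No protein sequence was used here.

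The members, gene lists and tests were chosen with earlier results of these data known. Genes named were the members, their adult counterparts, Dmd, Terc, up to 4 genes of each other list by smallest edgeR p, and the 5 genes most like Myh3; other named list genes, and Adamts20, were singled out after their values were seen.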

Additional observations from a re-analysis of the deposited data

Results flagged for a closer look

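Of 48 groups of 6 values examined (levels of the members and adult counterparts, and the 5 shares and 5 log2 ratios to Acta1, each in both groups), 11 held a mouse whose gap to the nearest other mouse was a larger part of the group's range than Dixon's 95% critical value allows. Chance flags about 1 group in 20, or 2.4 of 48, and the values are not independent of each other, since a share is made from the levels. The mouse mdx/mTR 5 was highest for Myh3 (215 CPM, others 20.1 to 80.5), Myl4 (162 CPM, others 29.4 to 66.4), Tnnt2 (44.9 CPM, others 9.36 to 19.2) and Tnnt1 (29.3 CPM, others 6.59 to 13.9). It was lowest for Myl3 (13.9 CPM, others 22.0 to 26.8). Its shares were highest for Myh3 (0.469%, others 0.0325% to 0.164%), Myl4 (3.90%, others 0.609% to 1.32%) and Tnnt2 (0.298%, others 0.0454% to 0.121%). Myh8 and Actc1 levels in that mouse did not pass this rule.

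The mouse WT 2 was highest for Myh1 (17094 CPM, others 7864 to 9929), Myh2 (2161 CPM, others 633 to 1151) and Myl3 (157 CPM, others 51.4 to 76.6). Its levels of Myh3, Myh8, Myl4, Tnnt2, Actc1 and Acta1 were not set apart in this way. Without WT 2 the log2 fold changes were -1.04 for Myh2 and -1.55 for Myl3, both still called.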

How the results depend on the processing

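All 5 developmental isoforms were called higher, and 0 lower, under each of the 21 alternatives run. Over 70 results and 1316 recomputed values, 1274 kept direction and side of the threshold, 3 passed no longer, 13 newly passed, 15 counts moved by over 1.5 times and 11 values reversed. Reversals were confined to the uncalled values near 0 of Acta1, Myh1 and Myl1. Acta1 was 0.0201 under upper quartile scaling, 0.133 with library totals alone, and -0.0543 to 0.0170 on leaving out each mouse. Myh1 was 0.0151 and 0.130 with those scalings, and -0.129 to 0.201 on leaving out each mouse, the highest without WT 2. Myl1 was -0.0210 to 0.0827 on leaving out each mouse. With library totals alone, 5596 genes were called higher and 1560 lower, against 3479 and 3257, or 78.2% against 51.6% higher among the called, and the median of all genes shifted to 0.17 from 0.01. Adult counterparts called higher were 1 with limma-voom, against 2. Fast-fibre partners called lower were 2, but 1 with library totals alone or an adjusted p under 0.01, 4 without mdx/mTR 1 and 5 with DESeq2. Regenerating fibre genes called lower were 0 with library totals alone or an adjusted p under 0.01, against 1. Other myosin heavy chains called higher were 1 under 6 alternatives, against 0. The cause of these shifts was not tested.

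Replicate numbers in the labels are not said to pair mice. Deviations of same-numbered mice correlated at -0.137 to 0.319, with 2 of 6 pairs over 0.1, and 2 of 6 mice of each group correlated best with their own number, so the numbers were not taken as pairs. With a replicate block the log2 fold changes were 3.66 for Myh3, 3.14 for Myh8, 2.73 for Myl4, 2.76 for Tnnt2, 1.002 for Actc1 and -0.0217 for Acta1, with 3308 genes called higher and 3112 lower.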
